A study of Mus musculus with 6 samples.

Results

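The genes described here encode the proteins of the cytosolic ribosome. They were chosen by symbol, as Rps genes for the small subunit and Rpl genes for the large subunit (with Rpsa and the stalk genes Rplp0, Rplp1 and Rplp2), among features with a mean of at least 1 FPKM over the 6 libraries. FPKM (fragments per kilobase of exon, scaled to library size) was the authors' deposited unit. The pattern matched 89 symbols, of which 83 passed the minimum, 35 Rps and 48 Rpl, out of 54966 features in the table. Of the 83, 79 were annotated as protein-coding and 4 (Rpl6l, Rps3a2, Rps3a3 and Rps4l) as processed pseudogenes, which are reverse-transcribed copies of mRNAs. The protein-coding genes include the paralogs Rps27l, Rpl7l1 and Rpl22l1, and 76 remain without them, 31 Rps and 45 Rpl.

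The RNA came from macrophages of regenerating mouse skeletal muscle, sorted as CD11b-positive, F4/80-positive cells with little Ly6C at day 3 after muscle injury with barium chloride. The labels call them pro-repair macrophages. The mice were described as wild-type, and the only difference given between the groups was age, with 3 libraries from young and 3 from old mice. The deposited sheet that holds all libraries has R26-Cx3Cr1 in its name, and whether this names a mouse line was not resolved here. No age in months, strain or sex is stated in the labels. Nor do they state that each library stands for its own animal, and the p-values then reflect variation from library to library, part of which may be technical.

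A ribosome holds 1 copy of nearly every ribosomal protein, so the genes are expressed as a coordinated set. Their mRNAs begin with a run of pyrimidines, the 5′ terminal oligopyrimidine (TOP) tract, through which mTORC1 and the binding protein LARP1 control their translation and stability. In macrophages, growth signals and activation state are known to set how much of the cell's transcription and translation goes to ribosome production. The mouse genome also carries many processed copies of these genes, and short reads can be assigned to a copy in place of its parent.

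By fragments recovered from the FPKM steps, the libraries held 16543938 to 19400942 fragments each. Macrophage marker genes summed to 24470 to 30280 FPKM in young and 25700 to 31220 in old libraries, with Apoe and Lyz2 the most abundant. The genes of the sort markers were higher in every old library than in any young one, a pattern that 12.3% of all genes tested had. Adgre1 (F4/80) had 347 to 382 FPKM in young and 430.2 to 476 in old, and Itgam (CD11b) had 34.3 to 36.9 and 41.9 to 50.9. Cd68, at 795 to 1077 against 1206 to 1478, Fcgr1 and C1qb shared the pattern. Csf1r (mean 454 in young, 385 in old) and Lyz2 (10360 and 9916) were lower on average in old, with overlapping groups. Mertk was level (67.3 and 67.7), and Apoe, C1qa and C1qc were higher on average in old with overlapping groups. Ly6c2 had 1.31 to 3.20 FPKM in young and 2.46 to 7.68 in old. The 8 muscle fibre markers summed to 11.9 to 16.8 FPKM in young and 6.09 to 9.42 in old, the 4 fibroblast markers to 1.85 to 3.74 and 0.714 to 1.44, and the T and NK cell markers reached at most 0.179 in any library. The muscle fibre and fibroblast sums were lower in every old library than in any young one, as were most ribosomal protein genes. The part of these markers in the result was not tested. Among the defining markers, Cd3e and Ly6g were listed at 0 in every library.

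The ribosomal protein genes were lower in old macrophages as a set, by about the same ratio in both subunits, and no single member passed the test over all genes. Together they held 5.97%, 6.15% and 6.75% of the summed FPKM in young libraries 1, 2 and 3 and 4.74%, 5.28% and 5.09% in old libraries 1, 2 and 3. The means were 6.29% ± 0.41 (SD, n = 3) in young and 5.04% ± 0.272 (SD, n = 3) in old, and the groups did not overlap. As a share of recovered fragments, which does not weight short genes more, the members held 3.11%, 3.24% and 3.56% in young and 2.42%, 2.76% and 2.61% in old. These bulk values cannot tell apart less ribosomal protein mRNA in every cell from fewer cells that hold much of it.

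Log2 changes, given as old minus young on the log2(FPKM + 1) scale, had a median of -0.26 over the 83 members, beside 0.01 over all 11108 genes tested. The Rps median was -0.27 and the Rpl median was -0.26. Of the 83 members 80 had a negative change, against 46.9% of all genes tested, and all 76 protein-coding genes without paralogs did so. The spread between those 76 was small, with an interquartile range of -0.29 to -0.24 and extremes of -0.57 and -0.08. At a limma p adjusted over all genes tested, with a threshold of 0.05, no member was called, where 0.036% of all genes were. The smallest adjusted p of a member was 0.144, for the pseudogene Rps4l, followed by 0.169 for Rps6. Voom called 0.374% of genes and array weights 0.45%, and neither called a member.

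At an unadjusted limma p under 0.05, 58 of the 83 members were lower in old (25 of 35 Rps and 33 of 48 Rpl) and none was higher, where 6.18% of all genes were lower and 8.84% higher. In 61 members, 26 Rps and 35 Rpl, all 3 old libraries lay below all 3 young ones, a pattern that 8.59% of all genes had. In 1 member, Rpl7l1, all old libraries lay above all young ones, where 12.3% of all genes did. The members share the libraries and vary together, so these counts hold far fewer independent observations than genes. The count at an unadjusted p dropped to 34 without young library 3 (4.02% of all genes), to 31 without old library 1 (5.40%) and to 37 without old library 3 (4.54%). The median stood at -0.20 without young library 3 and at -0.21 without old library 1.

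**Figure D1:**
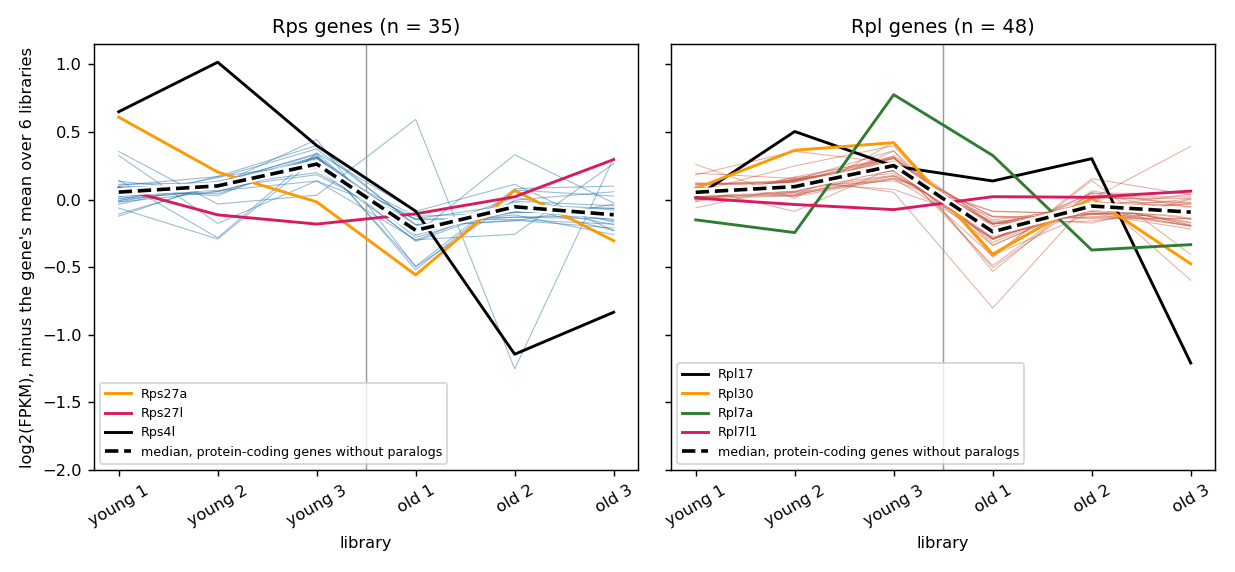
Log2(FPKM) of each member minus its mean over the 6 libraries, by library, for 35 Rps genes (left) and 48 Rpl genes (right). Thin lines are single genes, coloured lines are genes named in the legend, and the dashed line is the median of the protein-coding genes without paralogs, which is highest in young library 3 (0.262 for Rps, 0.251 for Rpl) and lowest in old library 1 (-0.228 and -0.238).

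The level of the set also differed between libraries of the same age. Relative to each gene's own mean, the median log2 level of the 76 genes was 0.0542, 0.0991 and 0.256 in young libraries 1, 2 and 3, and -0.229, -0.0523 and -0.0991 in old libraries 1, 2 and 3. The gap between young library 1 and old library 2 was thus smaller than the gap within either group. Young library 3 was the highest of the 6 for 70 of the 76 genes. Old library 1 was the lowest for 63 of them, old library 3 for 9 and old library 2 for 4.

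The small and large subunit moved together from library to library. The Rps median stood at 0.0548, 0.101 and 0.262 in young and at -0.228, -0.0536 and -0.113 in old. The Rpl median stood at 0.0535, 0.0954 and 0.251 in young and at -0.238, -0.048 and -0.0931 in old. The difference between the subunits within a library therefore ranged from -0.0113 to 0.0195, beside a range of the set from -0.229 to 0.256. The ratio of summed Rps to summed Rpl FPKM was 0.708, 0.709 and 0.723 in young and 0.705, 0.697 and 0.718 in old. Its means of 0.713 ± 0.00841 (SD, n = 3) and 0.707 ± 0.0108 (SD, n = 3) differed by less than the spread within a group, and the groups overlapped. Counted in recovered fragments, which does not weight short genes more, the ratio was 0.755, 0.756 and 0.763 in young and 0.742, 0.745 and 0.752 in old. On this scale the groups did not overlap, and the means of 0.758 ± 0.00429 and 0.746 ± 0.00481 (SD, n = 3 each) differed by more than the spread within a group, though by little beside the change of the set as a whole. Without members under 600 bases of exon, such as Rplp1 and Rpl38, the FPKM ratio was 0.905 to 0.928 in young and 0.893 to 0.929 in old, again overlapping. None of these ratios counts subunits.

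In the small subunit, Rps6 (ENSMUSG00000028495), the substrate of the S6 kinases downstream of mTORC1, had 337, 339.6 and 368 FPKM in young and 281, 281 and 275 in old libraries. The 3 old libraries lay within 7 FPKM of each other and all below the young ones, and young library 3 was the highest. The change was -0.32 (SE 0.0711, limma adjusted p = 0.169). Rps3, at the entry of the mRNA channel, had 132, 135 and 148 FPKM in young and 114, 115 and 114 in old (-0.28, SE 0.0689). Rpsa, also known as the laminin receptor precursor, had 248, 259.5 and 277 in young and 192, 224 and 197 in old (-0.36, SE 0.0874). In both genes, as in Rps6, the groups did not overlap.

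Rps18 and Rps19 are proteins of the small subunit's head, and mutations of the human counterpart of Rps19 cause Diamond-Blackfan anaemia. Rps18 had 197 ± 14.6 FPKM in young and 161 ± 3.99 in old (SD, n = 3 each; -0.29), and Rps19 had 102 ± 4.23 and 85.4 ± 5.15 (-0.26). Rps15 had 605 ± 47.1 and 497 ± 28.7 (-0.28). Rps3a1 had 630.4 ± 55.4 and 543 ± 6.01 (-0.21). In these 4 genes every old library lay below every young one, and the limma adjusted p ranged from 0.195 to 0.331.

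Rps29, a small zinc-binding protein and the Rps gene of highest FPKM, spread more widely. It had 760.0, 901 and 1029 FPKM in young and 588, 875 and 887 in old, so that young library 1 lay inside the old range and old library 1 stood far below the rest. The change was -0.21 with an SE of 0.19, more than 2 times the SE of Rps6. Rps27a, made as a fusion with ubiquitin, followed another order, with 153, 115 and 99.1 FPKM in young and 68.1, 105.02 and 81.2 in old. It was highest in young library 1, where the set as a whole was not high, and its change of -0.52 (SE 0.202) came with overlapping groups.

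In the large subunit, Rplp0, the base of the stalk that recruits translation factors, had 673, 686 and 758 FPKM in young and 535, 579 and 535 in old. The groups did not overlap, and the change was -0.36 (SE 0.0852, limma adjusted p = 0.172). The stalk's smaller acidic proteins had smaller changes. Rplp1, the member of highest FPKM, had 1542, 1636 and 1759 in young and 1239, 1574 and 1414 in old (-0.23, SE 0.117). Rplp2 had 167, 169 and 195 in young and 138, 169 and 163 in old (-0.18, SE 0.106). For both, old library 2 reached into the young range.

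Rpl5 and Rpl11, which form a particle with 5S rRNA and bind the p53 regulator Mdm2 when free of the ribosome, had almost the same log2 change as each other. Rpl5 had 117 ± 10.4 FPKM in young and 98.1 ± 3.79 in old, and Rpl11 had 159 ± 17.7 and 133 ± 4.39 (SD, n = 3 each), both at -0.25 with non-overlapping groups. Rpl3, close to the peptidyl transferase centre, had 259.8, 254 and 269.7 in young and 213, 218 and 221 in old (-0.26, SE 0.0655). Its young libraries differed less than those of most members, and young library 3 exceeded library 1 only slightly.

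Rpl10a, a protein of the L1 stalk, averaged 166 ± 13.1 FPKM in young and 129 ± 8.71 in old (-0.37, SE 0.0871). Rpl18 had 102 ± 6.41 and 84.0 ± 0.627 (-0.27, SE 0.0688), and Rpl36a had 87.7 ± 10.3 and 63.4 ± 6.97 (-0.46, SE 0.116; SD, n = 3 each). These had, with Rplp0 and Rpl3, the smallest p-values among the Rpl genes, and their limma adjusted p ranged from 0.172 to 0.184. Rpl10, known from yeast to join the subunit late, in the cytoplasm, had 489.9 ± 26.2 and 442 ± 12.7 (-0.15, SE 0.0767), a change nearer to 0 than in all but 5 members, with groups that still did not overlap.

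Rpl38, Rpl39 and Rpl41 encode very short proteins and had wide spreads. Rpl38, known in mice for a role in the translation of Hox mRNAs, had 375, 419 and 459 FPKM in young and 271, 393 and 393 in old. Rpl39, in the wall of the exit tunnel, had 138, 154 and 173 in young and 97.6, 140.2 and 140.3 in old. Rpl41, the shortest member, had 601, 535 and 671 in young and 425, 633 and 582 in old. In all 3 genes old library 1 was the lowest by a wide margin and the other two old libraries overlapped the young ones, and the changes were -0.26, -0.31 and -0.15 with SEs of 0.162, 0.16 and 0.165. Without old library 1 the change of Rpl41 became 0.02. Rpl13a, which in human cells leaves the ribosome to silence translation after interferon gamma, was at 11.6 ± 1.65 FPKM in young and 8.51 ± 2.001 in old (-0.42, SE 0.161), with overlapping groups. In the annotation, 35.4% of its exon length was shared with Gm45713, Mir5121 and Snord33 together, which were all listed at 0.

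**Figure D2:**
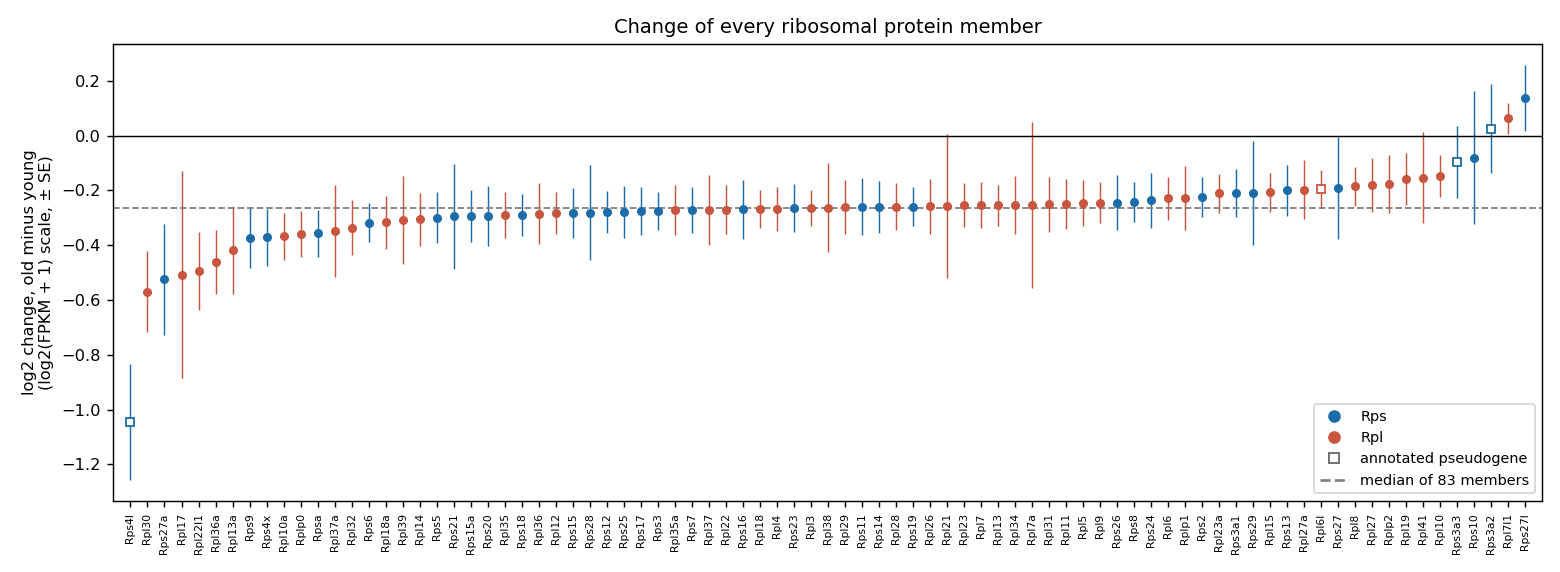
Log2 change (old minus young, log2(FPKM + 1) scale) of each of the 83 members with its limma standard error, ordered by size, with Rps in blue, Rpl in red and annotated pseudogenes as open squares. The interquartile range runs from -0.29 to -0.23 around the median of -0.26 (dashed line), Rps4l lies lowest at -1.05, and Rps3a2, Rpl7l1 and Rps27l lie above 0.

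The spread of the short genes was a pattern of its own. The 76 genes were divided into 3 groups by the length of the longest annotated coding sequence, at 138 to 405 bases (26 genes), 408 to 582 bases (25) and 588 to 1257 bases (25). The median change was nearly the same in each, at -0.27, -0.26 and -0.26. The median SE was 0.11 in the shortest group, 0.0928 in the middle one and 0.0836 in the longest. The number of genes whose groups did not overlap followed, with 16 of 26, 20 of 25 and 22 of 25. Across the 76 genes, Spearman's rho between SE and coding length was -0.573, given as a description since all genes share the 6 libraries. The log2 change itself had a rho of 0.0227 with coding length and of 0.122 with the mean FPKM.

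Within a library the short genes also deviated as a block. The median of the shortest group minus that of the longest was -0.0545, 0.0397 and 0.028 in young libraries 1, 2 and 3 and -0.124, 0.0639 and 0.0746 in old libraries 1, 2 and 3. The short genes thus stood below the long ones in library 1 of both groups and above them in the other four libraries. In old library 1 the shortest group was at -0.306 and the longest at -0.182, and in old library 3 they were at -0.0673 and -0.142. The difference had a mean of 0.0044 ± 0.0513 in young and 0.00495 ± 0.112 in old (SD, n = 3 each), so it did not separate the ages. Whether library preparation or fragment size moved with this pattern was not tested.

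**Figure D3:**
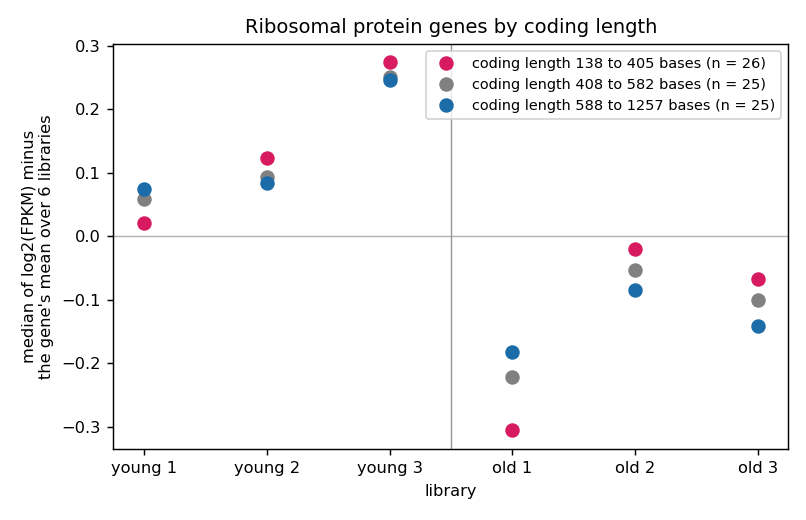
Median over genes of log2(FPKM) minus the gene's mean over 6 libraries, by library, for ribosomal protein genes of 3 classes of coding length. Short genes lie below long ones in young library 1 and old library 1 (-0.306 against -0.182 in the latter) and above them in the other libraries.

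Levels differed between members by far more than between ages. Over the 76 genes the FPKM ran from 1.41 (Rps10) to 1527 (Rplp1) with a median of 179.9, and the upper quartile was 2.93 times the lower. FPKM here divides by the union of all annotated exons, which for many members is much longer than the main mRNA, as in Rpl30 with 3020 bases of exon and 345 of coding sequence. FPM is FPKM times exon length in kilobases, and so gives fragments per 1000000 of the library size implied by FPKM. As FPM per kilobase of coding length, the median was 723 and the upper quartile was 1.63 times the lower, so the genes lay closer together on this scale. The extremes were Rps10 at 6.44 and Rpl41 at 4863. The Rps median was 777 and the Rpl median 657 on the same scale.

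Of the paralogs, Rps27l and Rpl7l1 had changes above 0, and Rpl22l1 had one well below the median of the set. Rps27l (ENSMUSG00000036781), a p53 target in human and mouse cells, had 79.0, 68.9 and 65.7 FPKM in young and 69.2, 75.5 and 91.4 in old. The groups overlapped, old library 3 was the highest and young library 3, the highest of the set as a whole, was the lowest. The change was 0.14 (SE 0.12, limma adjusted p = 0.64). Its parent Rps27 had 214, 151 and 188 in young and 139, 143 and 205 in old (-0.19, SE 0.185), with no clear order by age. Rps27l reached 0.370, 0.456 and 0.35 of Rps27 in young and 0.499, 0.529 and 0.446 of it in old, with overlapping groups.

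The coding sequences of Rps27 (chromosome 3) and Rps27l (chromosome 9) are shown because fragments of the pair have to be told apart by sequence for these values to hold. For Rps27l the annotated isoform with the same coding length as Rps27 was taken, so the equal length follows from this choice. The longest annotated coding sequence of Rps27l is 315 bases without the stop codon. In GENCODE M21 on GRCm38 both sequences shown are 255 bases with the stop codon. They differ at 61 positions, which are in capitals, giving 76.08% identity.
Rps27: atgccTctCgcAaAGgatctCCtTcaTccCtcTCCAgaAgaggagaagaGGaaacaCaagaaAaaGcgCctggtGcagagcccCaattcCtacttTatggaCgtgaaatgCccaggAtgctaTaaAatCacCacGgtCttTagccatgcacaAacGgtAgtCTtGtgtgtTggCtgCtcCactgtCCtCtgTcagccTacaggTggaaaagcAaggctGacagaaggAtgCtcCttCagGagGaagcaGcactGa
Rps27l: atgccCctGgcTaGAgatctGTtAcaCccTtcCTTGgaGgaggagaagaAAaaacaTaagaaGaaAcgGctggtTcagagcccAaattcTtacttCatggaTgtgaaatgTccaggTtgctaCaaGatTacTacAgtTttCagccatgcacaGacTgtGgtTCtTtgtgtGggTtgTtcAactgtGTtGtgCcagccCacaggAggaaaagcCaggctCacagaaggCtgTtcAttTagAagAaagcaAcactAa
The differences are spread over the whole sequence, and most are isolated bases.

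Rpl7l1, a nucleolar paralog of Rpl7, had 20.7, 20.01 and 19.5 FPKM in young and 20.8, 20.8 and 21.4 in old, and so was almost level (0.06, SE 0.0575, limma adjusted p = 0.654). Rpl7 itself had 217 ± 18.8 and 182 ± 7.68 (SD, n = 3 each; -0.25). Divided by the median member of the same library, Rpl7l1 was at 0.112, 0.103 and 0.092 in young and at 0.136, 0.118 and 0.125 in old, with every old library above every young one (exact permutation test, two-sided, p = 0.1, the smallest that 3 against 3 allows). The same ratio of Rps27l was 0.364 ± 0.0595 in young and 0.471 ± 0.0565 in old, and the groups overlapped narrowly (exact permutation p = 0.2, n = 3 each). Because the median member was itself lower in old, a gene of level FPKM rises on this ratio. Rpl7l1 and Rps27l were also named partly for a change nearest to or above 0, so these p-values give no separate support.

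Rpl22l1, a paralog that binds and regulates RNA in zebrafish and mouse blood cells, went the other way, with 13.4, 15.1 and 14.2 FPKM in young and 9.87, 12.2 and 7.82 in old. Its change was -0.49 (SE 0.143, limma adjusted p = 0.213), larger than that of Rpl22 (-0.27), and its groups did not overlap. Relative to the median member it was 0.0726 ± 0.00545 in young and 0.0597 ± 0.0123 in old, with overlapping groups (exact permutation p = 0.2, n = 3 each). Rps4l, a transcribed processed pseudogene that by its symbol belongs with Rps4x, had 5.33, 6.87 and 4.48 FPKM in young and 3.20, 1.54 and 1.91 in old, on 25 to 109 fragments a library. The change of -1.05 (SE 0.211) was the largest of any member, and its groups did not overlap. Divided by the median member, Rps4l was at 0.0289, 0.0355 and 0.0212 in young and 0.0209, 0.00872 and 0.0112 in old, so that young library 3 and old library 1 were nearly level (exact permutation p = 0.1, n = 3 each). Rps4l was named partly for its small limma p on these same values, so the permutation test gives it no separate support.

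The pseudogenes Rps3a2 and Rps3a3 had 45 to 71 and 23 to 36 fragments a library. Rps3a2 was at 4.15 ± 0.884 FPKM in young and 4.24 ± 0.885 in old, a change of 0.03 that became -0.03 after rescaling to TPM, and Rps3a3 at 2.23 ± 0.475 and 2.01 ± 0.242 (SD, n = 3 each). Rpl6l, a processed pseudogene that was chosen after its values were seen, was at 52.5 ± 1.36 and 45.7 ± 2.93 (-0.20, SE 0.069), with non-overlapping groups. It is a copy of Rpl6 (98.7% identity), which had 184 ± 13.1 and 156 ± 5.70 (-0.23, SE 0.0775).

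Of the 6 symbols below the minimum, Rpl10l and Rps12l1 were listed at 0 in every library, and Rpl3l, Rpl39l and Rpl32l had means of 0.145, 0.16 and 0.283 FPKM. Rpl3l and Rpl10l are known as muscle and testis forms in mice. The remaining symbol, Rpl24, is the gene of a core ribosomal protein and had 0.945, 1.33 and 0.456 FPKM in young and 0.869, 0.733 and 0.582 in old. In the annotation, 47.0% of its exon length is shared with Gm28037 on the same strand, and Gm28037 had at most 0.0961 FPKM in any library.

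Processed copies took a share of the fragments of nearly every member. A total of 1076 annotated pseudogenes matched 82 ribosomal protein genes at 90% identity or more over at least 50% of their length, and 177 of them had a mean of at least 1 FPKM. In the median protein-coding member, 2.26% of the fragments of gene and copies together lay in copies. In Rpl17, Rpl21 and Rps10 more than 50% did. With copies added to the parent, 77 of 79 protein-coding members were lower in old by the ratio of means, and the median change of all members tested was again -0.26.

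Rpl30, Rpl17 and Rps10, whose own changes lay far from the median, came closer to it once copies were added, whereas Rps27a, Rpl22l1 and Rpl36a hardly moved (-0.52, -0.49 and -0.46 with copies). Rpl30, Rpl17, Rpl7a and Rpl21 were chosen after their values were seen. Rpl30 (ENSMUSG00000058600) had 76.0, 92.4 and 96.1 FPKM in young and 54.3, 72.3 and 51.6 in old, the lowest change of any protein-coding member at -0.57 (SE 0.148). Among its copies, Gm12191 and Rpl30-ps10 ran opposite. Gm12191 had 53.0, 11.1 and 42.2 FPKM in young and 94.5, 44.9 and 124 in old, and Rpl30-ps10 had 24.0, 3.26 and 12.01 in young and 57.1, 20.4 and 73.9 in old. In both, young library 2 was the lowest and old library 3 the highest, and old library 2 lay within the young range.

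The start of the Rpl30 coding sequence (chromosome 15) and of these copies, at chr11:49678710-49679057 and chrX:71803688-71804034 in GRCm38, is shown because it leaves few bases by which a read can be placed. Capitals mark the bases that differ between Rpl30 and Rpl30-ps10, and in Gm12191 the base that differs from Rpl30.
Rpl30: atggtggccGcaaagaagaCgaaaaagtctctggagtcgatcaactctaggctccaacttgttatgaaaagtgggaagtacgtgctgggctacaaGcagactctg
Gm12191: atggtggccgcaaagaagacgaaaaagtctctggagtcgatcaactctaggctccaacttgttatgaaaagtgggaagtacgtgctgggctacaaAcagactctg
Rpl30-ps10: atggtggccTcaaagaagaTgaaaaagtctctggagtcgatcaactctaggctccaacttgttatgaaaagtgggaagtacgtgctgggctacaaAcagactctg
Counted from the first base of the start codon, Gm12191 carries G96A and Rpl30-ps10 carries G10T, C20T and G96A. Over their whole length the copies are 99.71% and 99.14% identical to the Rpl30 coding sequence, and Gm12191 has 1 mismatch in 348 bases.

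In FPM, Rpl30 and all its copies together had 258, 285 and 310.4 in young and 219, 243 and 228 in old. On this sum the groups did not overlap, young library 3 was the highest and old library 1 the lowest, as in the set, and the change was -0.30 (SE 0.0866) in place of -0.57. Rpl17 alone had 151, 212 and 177 FPKM in young and 164, 184 and 64.7 in old, where the value of old library 3 stood apart, and without that library its change was -0.04. With its copies, mainly Rpl17-ps10 and Rpl17-ps3, it had 507, 523 and 591 FPM in young and 438, 463 and 412 in old, and the change was -0.30 (SE 0.09) in place of -0.51 (SE 0.379). For Rps10, a member by 22 to 82 fragments a library, 96.8% of the family's fragments lay in copies, and Rps10-ps2 alone had 192, 205 and 209 FPKM in young and 165, 179.9 and 165 in old. The sum of the family had 103, 109.6 and 114 FPM in young and 90.3, 95.5 and 91.0 in old, a change of -0.23 (SE 0.0646) in place of -0.08 (SE 0.243).

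Other genes kept a spread of their own. Rpl7a had 87.5, 82.0 and 166 FPKM in young and 122, 74.96 and 77.0 in old, with young library 3 and old library 1 standing far above the others. With its copies the sum was 224, 224 and 352 FPM in young and 261, 214 and 204 in old, so that the same libraries remained high. Rpl21 with its copies had 219, 225 and 236 in young and 163, 196 and 222 in old, which still overlapped (-0.23, SE 0.113). The change of Rpl7a was -0.25 alone, 0.07 without young library 3 and -0.21 with copies, and that of Rpl21 alone was -0.26 and became 0.06 without old library 1.

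**Figure D4:**
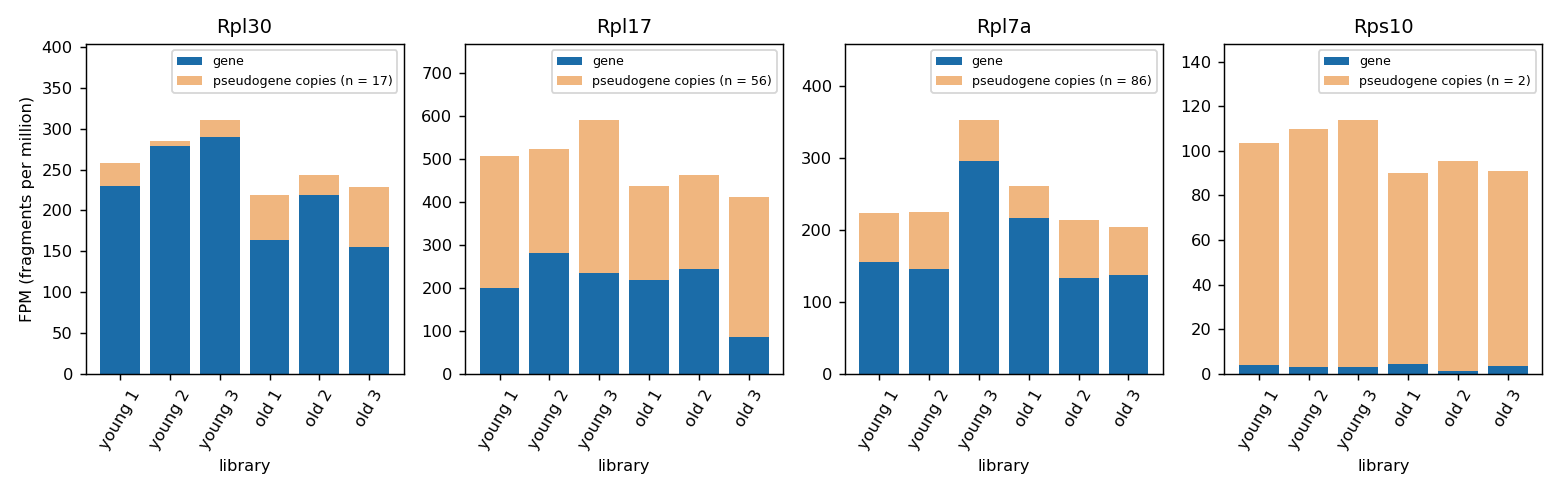
FPM (fragments per 1000000 of the library size implied by FPKM) assigned to the gene (blue) and to its matched annotated pseudogenes (orange) in each library, for Rpl30, Rpl17, Rpl7a and Rps10. In Rpl30, Rpl17 and Rps10 the sum is lower in every old library than in any young one, while Rpl7a stands high in young library 3 (352) and old library 1 (261).

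Start sites of the members were read for a pyrimidine run, the DNA form of a TOP tract. RefSeq windows on GRCm38.p6 were found for 59 members, 56 of them protein-coding and without paralogs. A run was at least 8 bases of C or T in a row on the sense strand that began within 25 bases of the annotated start. Of the 66 windows of the 56 genes 54.5% held a run, against 19.4% of 10108 windows of genes tested and 20.2% of all 32851 windows. By gene, it was 34 of 56 (60.7%), with 12 of 23 Rps and 22 of 33 Rpl, against 1832 of 7940 genes tested (23.1%). The windows below are shown because they include members of the smallest p-values with a run, in capitals, and others of a similar change or of none that have no run in this window.
Rps6, chr4:86857347-86857376, minus strand: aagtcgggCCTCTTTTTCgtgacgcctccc
Rps18, chr17:33955646-33955675, minus strand: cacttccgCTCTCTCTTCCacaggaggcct
Rpl18, chr7:45718064-45718093, plus strand: gcaggccgCTCTTTCCCCgcccactccggc
Rps3, chr7:99483695-99483724, minus strand: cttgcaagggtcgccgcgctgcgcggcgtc
Rplp0, chr5:115559452-115559481, plus strand: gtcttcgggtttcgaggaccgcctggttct
Rpl7l1, chr17:46782642-46782671, minus strand: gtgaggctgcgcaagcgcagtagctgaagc
An annotated start can lie away from the start used in these cells, so a window with no run says only that the letters are not there.

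Genes with a run in a window had a median change of -0.26 (n = 34) and genes without one a median of -0.27 (n = 22). As an annotated start can miss the tract, these medians do not compare genes with and without a TOP tract. The letters CCGGAAGT, on either strand within the 300-base window, were in 16.7% of the members' windows, 8.99% of windows of genes tested and 3.89% of all windows. TATAAA was in 9.09%, 7.004% and 13.6%. A match is a description of these letters and not a binding site.

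Genes outside the symbol pattern that encode ribosomal proteins had changes of a similar size, except Rpl36al. Rack1, a small subunit protein that docks signalling kinases, averaged 141 ± 7.28 FPKM over young and 118 ± 4.73 over old libraries (SD, n = 3 each). Its log2 change was -0.25 (SE 0.0708, limma adjusted p = 0.208). Fau, a fusion of a ubiquitin-like protein with a small subunit protein, had 645 ± 69.3 and 557 ± 29.3 (-0.21, SE 0.103, limma adjusted p = 0.401). In both genes every old library lay below every young one. Rpl36al, near 1 FPKM in both groups, had a change of -0.04 (SE 0.179, limma adjusted p = 0.944), and its groups overlapped.

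Other TOP genes lay between the members and the background. Of 20 genes known for TOP mRNAs that encode no ribosomal protein, chiefly translation factors, 19 had a negative change and the median was -0.17. All 3 old libraries lay below all young ones in 12 of the 20 (8.59% of all genes), none was called by limma, and 7 were lower at an unadjusted p under 0.05 (6.18% of all genes). Eef1b2, a subunit of the exchange factor of elongation factor 1, had 89.7, 94.6 and 101.9 FPKM in young and 71.3, 78.0 and 73.5 in old (-0.36, SE 0.0746, limma adjusted p = 0.154). Its groups did not overlap, and young library 3 was again the highest and old library 1 the lowest.

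The genes that build ribosomes had medians near that of all genes. In the list of 38 small subunit assembly factors tested the median was 0.02, with 14 negative, and in that of 46 large subunit assembly factors it was 0.01, with 21 negative, beside 0.01 for all genes. None was called by limma. At an unadjusted p under 0.05, 1 small subunit factor was lower (Nob1, the nuclease that finishes 18S rRNA) and 1 higher (Riok2, an ATPase of the late small subunit), and 2 of 46 large subunit factors were lower and 4 higher, where 6.18% of all genes were lower and 8.84% higher. Rpf2, known from yeast to bring the 5S particle into the large subunit, had 4.86, 4.48 and 5.52 FPKM in young and 7.04, 5.85 and 6.46 in old (0.32, SE 0.0943), with every old library above every young one.

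The list of RNA polymerase I and 5S genes also held Znhit3 and Znhit6, which are genes of neither kind. It had a median of -0.06, with 9 of 13 negative, 1 lower and none higher at an unadjusted p under 0.05, and none called by limma. The mTORC1 and TOP regulators had a median of -0.03, with 9 of 13 negative and none past an unadjusted p of 0.05 or called. The 77 mitochondrial ribosomal proteins tested, which form a separate ribosome, had a median of -0.03 with 40 negative, 3 lower and 3 higher at an unadjusted p under 0.05, and none called by limma. Whether the members differed from these lists was described by medians and counts and was not tested.

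**Figure D5:**
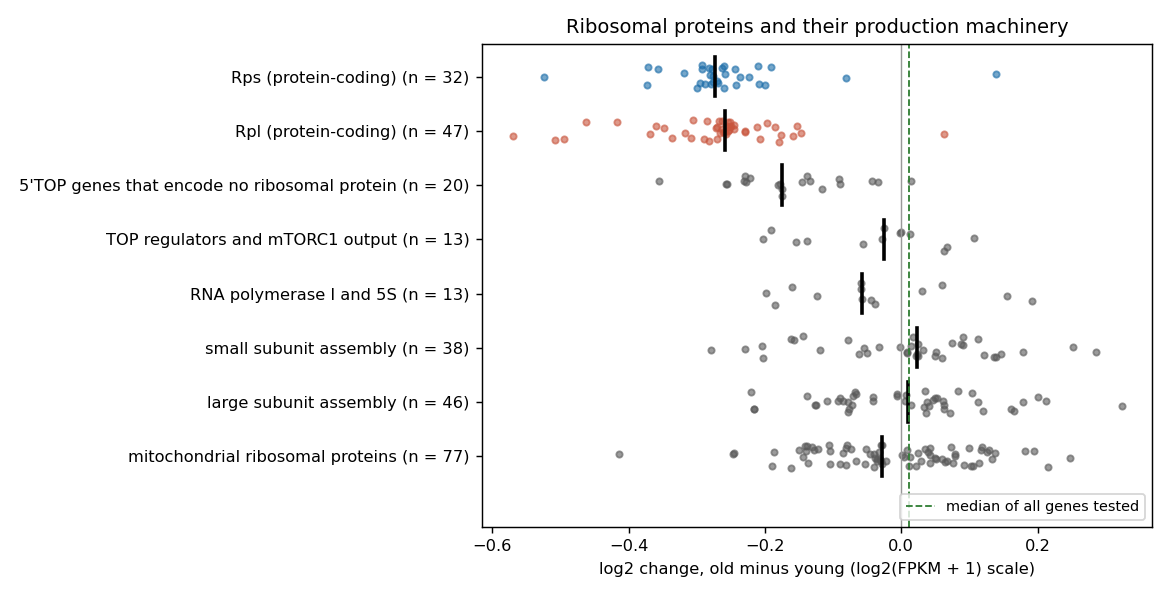
Log2 change (old minus young, log2(FPKM + 1) scale) of single genes (points) and list medians (bars) for protein-coding Rps and Rpl genes and for lists of related genes; the dashed line is the median of all genes tested. Rps and Rpl cluster at -0.27 and -0.26, other TOP genes at -0.17, and the assembly factors at 0.02 and 0.01.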

How the data were processed

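The deposited table held FPKM per gene for 6 libraries, which the authors had computed. The genome build named in the submitters' processing notes was GRCm38.p6, and per the labels' protocols total RNA was purified on micro-scale columns. Annotation release, strandedness, counting tool and aligner were not given in the sources used here, so fragments of overlapping genes and near-identical copies may have been shared or moved between them. FPKM times exon-union length gave whole fragments for 97.5% to 97.6% of values below 200, within 0.02 of a whole number, and these fragments gave depth and the voom alternative. The library sizes implied by FPKM were 16817289 to 18495984 in young and 17227703 to 18334793 in old libraries. Recovered fragments were below the implied size in every young library and above it in every old one. FPM therefore do not sum to 1000000 and differ from shares of recovered fragments. The test was limma 3.58.1 (R 4.3.3) with trend on log2(FPKM + 1) for the 11108 genes that averaged 1 FPKM or more, adjusted by Benjamini-Hochberg over all of them, and tested on simulated data. A fold change on this scale understates the change of low genes.

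Identifiers were matched to GENCODE M21 (54495 of 54966). Pseudogene copies were found with BLAST+ 2.17.0 at 90% identity over 50% of the copy. Start windows came from RefSeq on GRCm38.p6. Named members were, in each subunit, the 5 of smallest p, the 3 of highest and of lowest FPKM, the 3 of change nearest to or above 0, paralogs with parents, the stalk, and members of known roles; of other lists, the 3 of smallest p were eligible. Some listed genes are not reported here. Members and lists were chosen with earlier results of these data known. Alternatives covered the pseudocount, filter, scaling, moderation, weights, voom, replicate block, copies and leaving out each library.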

Additional observations from a re-analysis of the deposited data

How the results depend on the processing

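No ribosomal protein member passed the limma threshold under any of 19 alternative settings, and the smallest adjusted p of a named member in any was 0.0509 (Rps4l with array weights). The number of genes called over the whole table was 4 and depended on the setting, at 50 with array weights, 41 with voom and 0 with a minimum of 5 FPKM, with no filter, with a pseudocount of 0.1 or 0.01 and with the replicate number as a block, and 0 to 15 when a library was left out (15 without young library 1). Young and old libraries of the same replicate number had correlations of 0.032, 0.054 and 0.042, above those of unlike number, at -0.067 to 0.024. All were weak, so the numbers were not treated as pairs, and the replicate block called 0 members. What libraries of the same number share was not tested. The Rps median ranged from -0.31 to -0.21 and the Rpl median from -0.30 to -0.20 over left-out libraries, and the median of all members was -0.31 with quantile normalization and -0.33 as TPM, where all genes stood at -0.04. The Rpl median minus the Rps median was 0.01 and became -0.0048 with array weights and -0.0052 with quantile normalization. Between 77 and 81 members were negative under all settings. Of 734 values of members named in the text 8 changed sign: Rpl21 to 0.0631 without old replicate 1 (lowest -0.51), Rpl7a to 0.0699 without young replicate 3 (lowest -0.48), Rpl41 to 0.0174 without old replicate 1 (lowest -0.27 with another library left out), Rps10 to 0.203 without old replicate 2 (lowest -0.27), Rps27 to 0.0382 with array weights, and Rps3a2 to -0.0277 as TPM, -0.102 without old replicate 2 and -0.0845 without young replicate 2 (highest 0.16). The cause was not tested. Adding copies to the parent gene, and counts without each library, were chosen after seeing the data. Rps10, Rps3a2, Rps3a3 and Rps4l rest on few fragments, which limits their precision.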
